A study of Mus musculus with 12 samples.

Results

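Lung endothelial cells of both genotypes in the series were compared between 1% and 21% oxygen, and the oxygen effect given here is the mean of the effect in each genotype. The cells were primary mouse lung endothelial cells, grown from the lungs of MLK2-/-MLK3-/- double knockout (DKO) mice and of C57BL/6J wild type (WT) mice in a medium with serum, endothelial mitogen and heparin. The groups were DKO cells after 90 min at 1% oxygen (DKO hypoxia), WT cells after 90 min at 1% oxygen (WT hypoxia), DKO cells at 21% oxygen (DKO normoxia) and WT cells at 21% oxygen (WT normoxia). Each group had 3 libraries, so 6 hypoxia libraries were set against 6 normoxia libraries, and all 12 libraries of the series took part. Whether replicate libraries were made from different cultures or mice is not stated in the labels, so a p-value here reflects only how far these libraries spread, which may be technical. The labels also do not name the exons that the knockout alleles lack. RNA was measured as fragments per kilobase of transcript, scaled to the mapped fragments of the library (FPKM), summed over the transcripts of each gene. A gene was tested where its mean over the 12 libraries was at least 1 FPKM, which held for 11378 of 23422 gene identifiers.

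Cells sense a fall in oxygen through prolyl hydroxylases that, while oxygen is present, mark the alpha subunits of the hypoxia-inducible factors (HIF) for destruction by the VHL ubiquitin ligase. When oxygen falls, HIF-alpha persists, pairs with ARNT and binds short DNA elements with the core ACGTG or GCGTG, near genes for glucose uptake, glycolysis, mitophagy and vessel growth. Endothelial cells line the lung's vessels, live next to the airspaces and use glycolysis for much of their energy, so they have both the HIF machinery and many of its known targets. MLK2 and MLK3 are mixed lineage kinases that act upstream of the JNK and p38 kinases.

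The libraries were close to each other in quality. Steps in the low values gave an estimate of 21000000 to 25800000 fragments per library, and 11281 to 11410 genes were at 1 FPKM or more. Pairs of libraries correlated at 0.994 to 0.996 within groups and 0.983 to 0.993 between groups (Pearson's r of log2 values across genes, which are not independent replicates). The deleted gene Map3k10, which encodes MLK2, was at 1.34, 1.15 and 1.02 FPKM in DKO hypoxia, 19.1, 16.6 and 16.7 FPKM in WT hypoxia, 0.145, 0.169 and 0.131 FPKM in DKO normoxia and 18.9, 18.3 and 19.2 FPKM in WT normoxia. Map3k11, which encodes MLK3, was at 12.2, 11.5 and 11.2 FPKM in DKO hypoxia, 32.4, 34.4 and 31.9 FPKM in WT hypoxia, 11.5, 10.9 and 11.1 FPKM in DKO normoxia and 36.4, 33.8 and 34.0 FPKM in WT normoxia. Both were far lower in every DKO library than in every WT library, although Map3k11 signal remained. Endothelial markers were present at both oxygen levels: the junction gene Pecam1 was at 548 to 640.2 FPKM in hypoxia and 549 to 596 FPKM in normoxia, and Cdh5, which encodes VE-cadherin, at 148 to 176 FPKM in hypoxia and 125 to 154 FPKM in normoxia. Von Willebrand factor (Vwf), a marker of larger vessels, stayed at or under 0.208 FPKM in all 12 libraries.

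Of the 11378 genes, 5193 passed the threshold for the average oxygen effect (45.6% called, limma, Benjamini-Hochberg adjusted p under 0.05). Of these, 2585 rose in hypoxia (22.7% of tested genes) and 2608 fell (22.9%). Most of these changes were small: the median size among called genes was 0.22 on the log2 scale, which is a difference of log2(FPKM + 1) and understates the change of genes at low levels. Changes over 0.5 were found in 195 risen and 210 fallen genes, and changes over 1 in 37 risen and 7 fallen genes, or 55 and 24 with a pseudocount of 0.1 in place of 1. Only risen genes, 6 of them, changed by more than 2. All 6 hypoxia libraries lay above all 6 normoxia libraries in 1062 of the risen genes (9.33% of tested genes) and below them in 1107 of the fallen genes (9.73%). The median change over all tested genes was 0.01. In a principal component analysis the first component held 39.1% of the variance and separated the oxygen levels, with scores of 15.5 to 18.2 in DKO hypoxia, 5.00 to 11.5 in WT hypoxia and -13.3 to -11.4 in normoxia. WT hypoxia library 3 had the lowest hypoxia score, 5.00, and 5146 genes were called without it.

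The largest rises were in HIF target genes, from low levels in normoxia. Ankrd37, an ankyrin repeat gene that HIF-1 is known to drive, was at 67.5, 75.4 and 80.4 FPKM (lowest, median and highest of 6 libraries) in hypoxia, against 2.44, 2.97 and 3.85 FPKM in normoxia, a 24.6-fold higher mean (log2 change 4.24 ± 0.089 SE, limma adjusted p = 3.05e-11). The lowest hypoxia library was far above the highest normoxia library. Ak4, an adenylate kinase of the mitochondrial matrix, was at 39.3, 54.1 and 56.7 FPKM in hypoxia and 2.66, 2.98 and 5.54 FPKM in normoxia (log2 change 3.59 ± 0.12 SE, limma adjusted p = 7.62e-10). Pfkfb3, which makes the activator of phosphofructokinase and speeds glycolysis, was at 20.5, 28.1 and 34.6 FPKM in hypoxia and 1.48, 1.80 and 2.06 FPKM in normoxia (log2 change 3.39 ± 0.087 SE, limma adjusted p = 9.43e-11). Neither gene's groups overlapped. Slc16a3, the lactate exporter MCT4, was at 20.4, 23.9 and 29.0 FPKM in hypoxia and 1.12, 1.68 and 2.47 FPKM in normoxia (log2 change 3.20 ± 0.074 SE, limma adjusted p = 3.72e-11). Bnip3, a receptor on the mitochondrial surface that recruits the autophagy machinery, was at 97.8, 109 and 115 FPKM in hypoxia and 11.6, 12.3 and 13.4 FPKM in normoxia (log2 change 3.02 ± 0.045 SE, limma adjusted p = 1.52e-12), the smallest p of all tested genes. Vegfa, the growth factor that guides vessel sprouting, was at 7.69, 10.7 and 11.5 FPKM in hypoxia and 0.281, 0.635 and 0.991 FPKM in normoxia (log2 change 2.79 ± 0.12 SE, limma adjusted p = 1.36e-08). The lowest hypoxia library stood above the highest normoxia library for each of these 3 genes too. Lack of overlap was part of the rule that named the largest rises, so it is no further support for them. Vegfa, at a mean of 0.62 FPKM in normoxia, passed the filter of 1 FPKM only through its hypoxia libraries.

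By the positions of GENCODE M21 (GRCm38), Ankrd37 lies at chromosome 8, 45996902 to 46005707, - strand, ENSMUSG00000050914, Ak4 at chromosome 4, 101419277 to 101466995, + strand, ENSMUSG00000028527, Pfkfb3 at chromosome 2, 11471433 to 11554077, - strand, ENSMUSG00000026773, Slc16a3 at chromosome 11, 120948480 to 120960868, + strand, ENSMUSG00000025161, Bnip3 at chromosome 7, 138890836 to 138909519, - strand, ENSMUSG00000078566 and Vegfa at chromosome 17, 46016993 to 46032369, - strand, ENSMUSG00000023951. Where the deposited values are split by transcript, the whole rise of Ankrd37 and Bnip3 came from the 1 transcript listed for each. The leading transcript of Pfkfb3 carried 74.5% of its rise, that of Vegfa 48.5%, that of Ak4 41.8% and that of Slc16a3 40.0%, with 6 to 12 transcripts listed for each of these 4 genes.

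**Figure D1:**
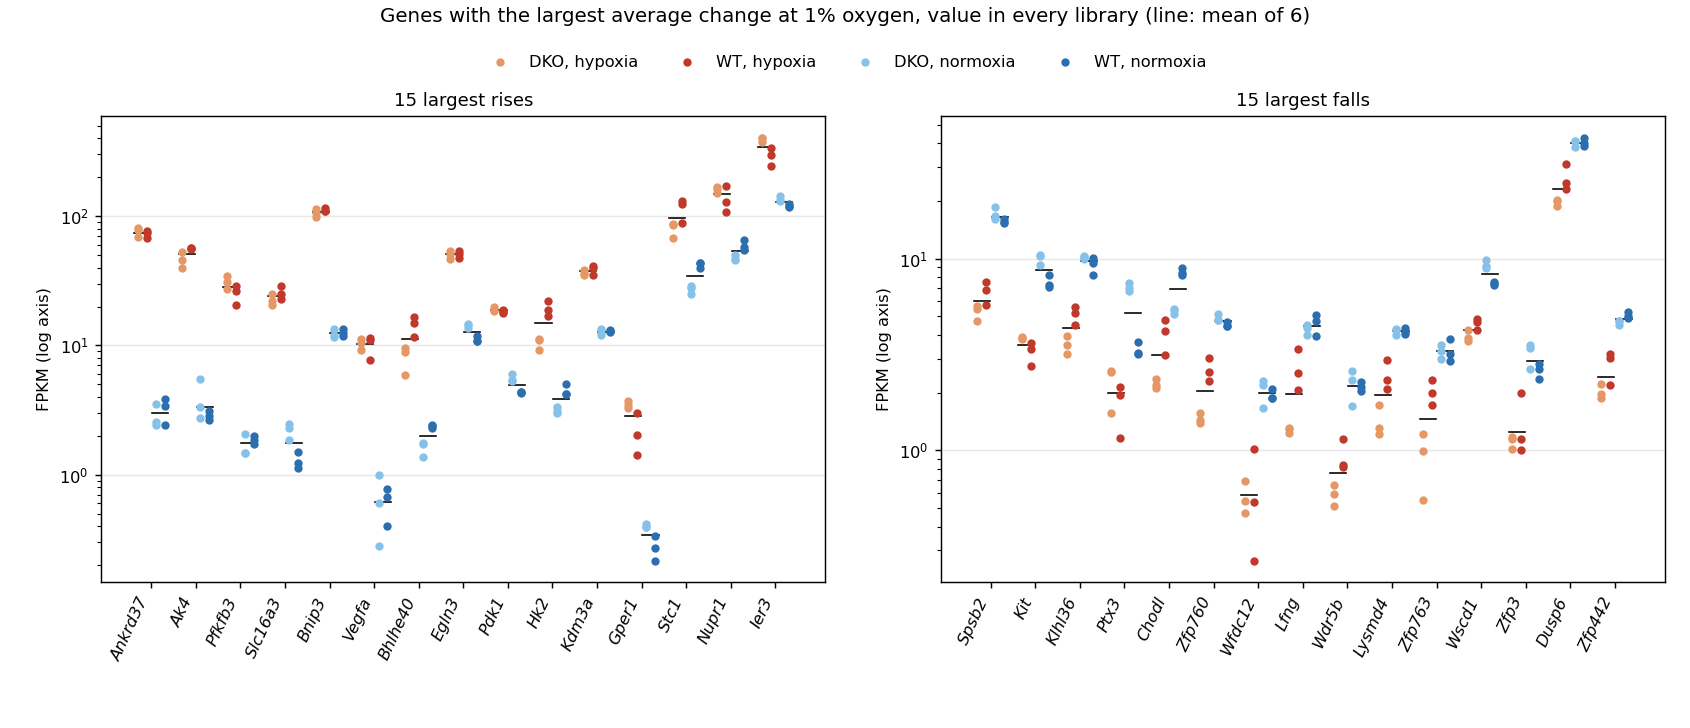
FPKM on a log axis in each of the 12 libraries (points, coloured by group) and the mean of the 6 libraries at each oxygen level (lines), for the 15 named genes with the largest rise (left panel) and the 15 with the largest fall (right panel). Hypoxia points stand left of normoxia points for each gene; Ankrd37 averaged 74.4 FPKM in hypoxia and 3.03 FPKM in normoxia, and Spsb2 5.98 FPKM in hypoxia and 16.4 FPKM in normoxia.

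The promoters of the 4 genes with the largest rises are printed because HIF is known to bind the letters ACGTG or GCGTG. Each run is the 250 bases before the most upstream start that the RefSeq table lists for the gene, written 5′ to 3′ on the gene's own strand (RefSeq, build GRCm38.p6), with every match to ACGTG or GCGTG on either strand in capitals; overlapping matches run together. Ankrd37 is at chr8:45999851-46000100 on the minus strand, Ak4 at chr4:101419039-101419288 on the plus strand, Pfkfb3 at chr2:11553930-11554179 on the minus strand and Slc16a3 at chr11:120948817-120949066 on the plus strand. By the GENCODE M21 positions given above, whose starts differ from those of RefSeq, the Ankrd37 and Slc16a3 windows lie inside the gene's span, and the Ak4 and Pfkfb3 windows cross its start.
Ankrd37: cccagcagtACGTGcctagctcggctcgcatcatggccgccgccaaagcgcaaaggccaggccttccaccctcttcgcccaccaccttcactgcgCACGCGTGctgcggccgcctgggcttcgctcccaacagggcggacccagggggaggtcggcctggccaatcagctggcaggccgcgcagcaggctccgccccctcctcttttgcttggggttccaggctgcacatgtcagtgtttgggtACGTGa
Ak4: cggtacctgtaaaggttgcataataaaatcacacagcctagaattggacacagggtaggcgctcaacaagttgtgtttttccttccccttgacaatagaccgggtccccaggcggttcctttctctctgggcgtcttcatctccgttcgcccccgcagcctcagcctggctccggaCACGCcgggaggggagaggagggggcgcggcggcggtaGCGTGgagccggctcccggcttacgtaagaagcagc
Pfkfb3: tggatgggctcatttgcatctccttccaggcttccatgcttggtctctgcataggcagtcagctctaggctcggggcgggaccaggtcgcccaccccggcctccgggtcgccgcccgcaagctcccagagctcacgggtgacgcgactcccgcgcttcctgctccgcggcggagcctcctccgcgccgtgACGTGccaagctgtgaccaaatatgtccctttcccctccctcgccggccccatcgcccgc
Slc16a3: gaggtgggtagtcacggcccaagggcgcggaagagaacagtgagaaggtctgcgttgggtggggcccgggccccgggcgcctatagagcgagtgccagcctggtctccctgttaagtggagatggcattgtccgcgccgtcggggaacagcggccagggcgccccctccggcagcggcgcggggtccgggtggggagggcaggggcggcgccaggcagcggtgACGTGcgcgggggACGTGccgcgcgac

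The Ankrd37 window held 4 matches, with first bases 241, 155, 152 and 6 bases before the start, of which the middle pair overlap. Ak4 held 2, at 74 and 36 bases, both of GCGTG. Pfkfb3 held 1 ACGTG, at 60 bases, and Slc16a3 held 2, at 27 and 14 bases. Of the 15 named genes with the largest rise, 13 had an entry in the promoter table. Of those, 8 held ACGTG, 5 held GCGTG and 11 held at least 1 of them. In the windows of all tested genes with an entry, 22.7% held ACGTG, 47.7% held GCGTG and 59.3% at least 1 of them. The windows of Vegfa and Gper1 held neither, which says only that these letters are not in this window.

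Over all genes the share of windows with ACGTG was larger the more a gene had risen. It was 59.4% (19 of 32) for genes with a log2 rise of over 1, 39.6% (57 of 144) for those that rose by more than 0.5 and 25.6% for those that rose by up to 0.5. The 144 windows include the 32, so these 2 classes are not separate. The share was 13.1% (20 of 153) for genes that fell by more than 0.5, 22.8% for those that fell by up to 0.5 and 21.3% for genes not past the threshold. In the windows of all 8525 tested genes with an entry, 81.4% of the 10476 tested genes with a named model, the share was 22.7%, and in all 27025 windows of the table it was 16.5%. GCGTG was spread more evenly, with 53.1% for genes that rose by more than 1 against 47.7% for all tested genes and 28.3% for the whole table. These shares are descriptions of letters and were given no test.

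**Figure D2:**
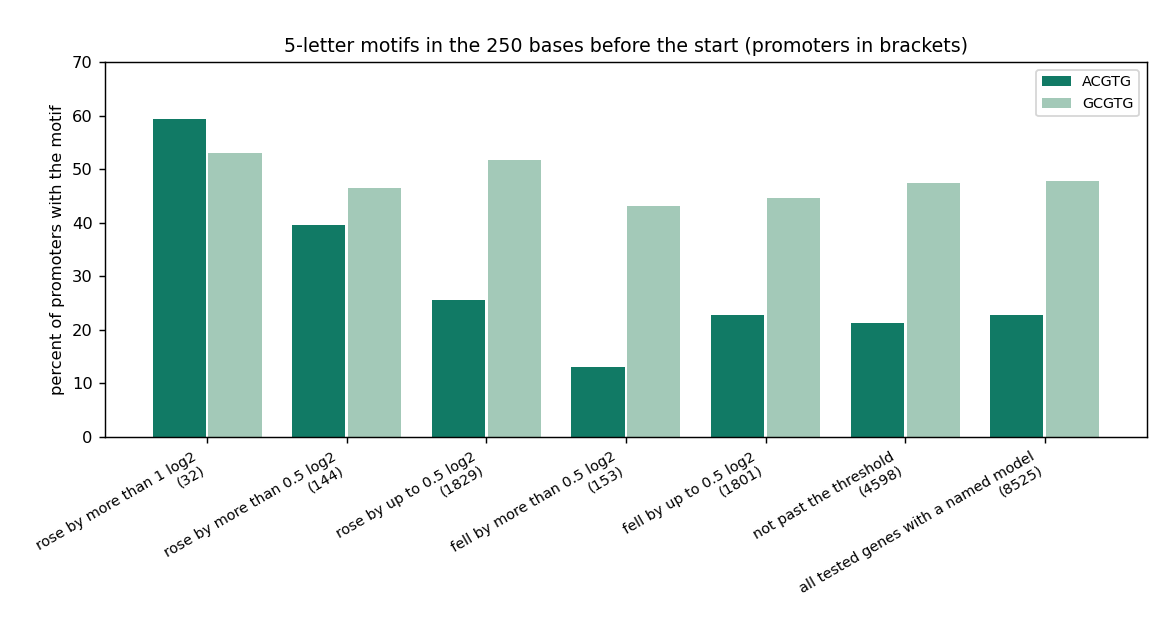
Percent of promoter windows (250 bases before the start) that hold ACGTG (dark) or GCGTG (light) on either strand, by class of average oxygen effect, with the number of windows in brackets. Genes that rose by more than 1 are also in the class that rose by more than 0.5. The ACGTG bar is at 59.4% for genes that rose by more than 1, 13.1% for genes that fell by more than 0.5 and 22.7% for all tested genes.

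The 33 pathway lists read against the shares for all tested genes (22.7% risen, 22.9% fallen) ranged from lists in which nearly every member rose to lists in which few members passed in either direction.

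**Figure D3:**
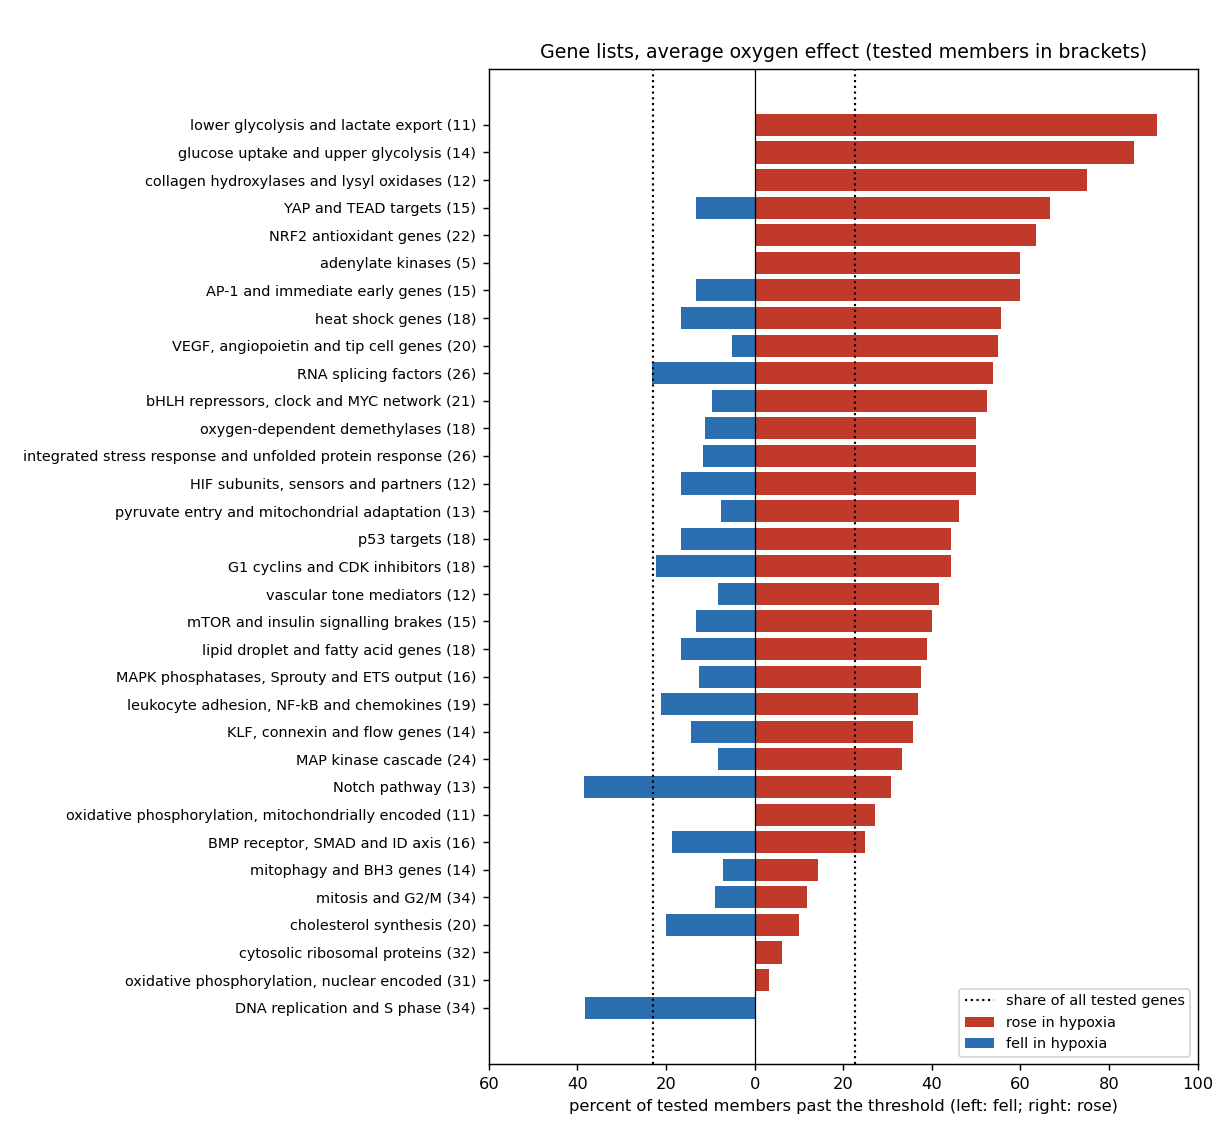
Percent of the tested members of each gene list that rose (right, red) or fell (left, blue) in hypoxia past the threshold of the average effect, with the number tested in brackets and dotted lines at the shares of all tested genes (22.7% risen, 22.9% fallen). The glycolysis lists and the collagen hydroxylase list had risen members and none that fell; DNA replication and S phase had 13 fallen and none that rose.

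The oxygen sensing loop itself changed. Of 12 tested members of the HIF list, 6 rose, 2 fell and 4 did not pass the threshold. Egln3, the prolyl hydroxylase that HIF induces most, was at 46.3, 51.0 and 54.0 FPKM in hypoxia and 10.8, 12.7 and 14.5 FPKM in normoxia (log2 change 1.93 ± 0.044 SE, limma adjusted p = 3.72e-11). Egln1, the main oxygen sensor, was at 24.5, 26.4 and 28.0 FPKM in hypoxia and 11.9, 12.8 and 13.7 FPKM in normoxia (log2 change 0.99, limma adjusted p = 1.55e-09), and its groups did not overlap. The third prolyl hydroxylase, Egln2, was at 60.6 FPKM in hypoxia and 58.7 FPKM in normoxia on average and did not pass the threshold. Vhl, whose product marks HIF-alpha for destruction, rose by 0.61 (limma adjusted p = 2.93e-08), and Cited2, which competes with HIF for its coactivators, rose by 0.87 (limma adjusted p = 2.76e-05). Among the factors, Hif1a averaged 149 ± 14.7 FPKM in hypoxia and 103 ± 3.15 FPKM in normoxia (SD, n = 6 each) and rose by 0.53 (limma adjusted p = 3.04e-07). Epas1, which encodes HIF-2 alpha, averaged 2.32 FPKM in hypoxia and 2.39 FPKM in normoxia, and its partner Arnt 8.10 FPKM in hypoxia and 9.10 FPKM in normoxia; neither passed the threshold. Hif1an, the asparagine hydroxylase that blocks HIF's coactivators, and the ubiquitin ligase Siah1a fell, by 0.25 and by 0.32 on the log2 scale.

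Glycolysis rose along nearly its whole length. In glucose uptake and upper glycolysis 12 of 14 tested members rose and none fell, with a median change of 0.52, and in lower glycolysis and lactate export 10 of 11 rose and none fell, with a median of 0.57. The glucose carrier Slc2a1 was at 105, 112 and 119 FPKM in hypoxia and 46.0, 49.4 and 51.1 FPKM in normoxia (log2 change 1.17, limma adjusted p = 1.51e-10). Hk2, the inducible hexokinase, was at 9.28, 14.1 and 21.9 FPKM in hypoxia and 2.98, 3.78 and 5.07 FPKM in normoxia, and rose by 1.67 (limma adjusted p = 1.12e-08), while the housekeeping hexokinase Hk1 rose by 0.68. Of the phosphofructokinase subunits, Pfkl rose by 1.08 and Pfkp by 0.76, whereas Pfkm was at 11.1 FPKM in hypoxia and 11.5 FPKM in normoxia and did not pass. The groups of all 4 of the risen enzymes did not overlap.

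In the lower part of the pathway, Ldha, which turns pyruvate into lactate, was at 677, 712 and 733 FPKM in hypoxia and 270.3, 287 and 297 FPKM in normoxia (log2 change 1.31 ± 0.029 SE, limma adjusted p = 3.72e-11). Tpi1, triose phosphate isomerase, was at 492, 506 and 515 FPKM in hypoxia and 196, 199 and 222 FPKM in normoxia (log2 change 1.32 ± 0.03 SE, limma adjusted p = 3.72e-11). Pgam1 rose by 1.07, Eno1 by 0.64, Pgk1 by 0.57, Aldoa by 0.50, Gapdh by 0.47 and Pkm by 0.27, none with overlapping groups. Ldhb, the lactate dehydrogenase subunit that favours pyruvate, was the member that did not pass, at 5.76 FPKM in hypoxia and 6.69 FPKM in normoxia, and it fell without DKO hypoxia library 2. The summed level of the 11 lower glycolysis genes was 5218 to 5447 FPKM in hypoxia libraries and 3286 to 3503 FPKM in normoxia libraries.

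The step from pyruvate into mitochondria changed at its regulators. Pdk1, the kinase that shuts off pyruvate dehydrogenase, was at 17.95, 18.6 and 19.9 FPKM in hypoxia and 4.26, 4.84 and 5.96 FPKM in normoxia (log2 change 1.73 ± 0.036 SE, limma adjusted p = 3.05e-11). Pdp1, the phosphatase that reverses this, averaged 17.9 FPKM in hypoxia and 28.5 FPKM in normoxia and fell, with a log2 change of -0.65 (limma adjusted p = 2.72e-07). Neither gene's groups overlapped, and the kinase and the phosphatase changed in opposite directions. Fam162a, a mitochondrial protein that HIF-1 induces, rose by 1.22 (limma adjusted p = 5.11e-11), and Higd1a, an assembly factor of the respiratory chain, by 1.03. The enzyme and carrier genes Pdha1, Mpc1 and Mpc2 did not pass, with log2 changes of 0.03, 0.06 and -0.04. Of 5 tested adenylate kinases, which balance the adenine nucleotides, 3 rose, among them Ak4 by 3.59 and Ak6 by 0.20. In the mitophagy and BH3 list only Bnip3 and its relative Bnip3l (0.41) rose, the proapoptotic gene Bbc3 fell (-0.25), and 11 of 14 did not pass (3 fell under quantile normalization, and 3 rose without WT normoxia library 3 or DKO hypoxia library 3), among them Pink1 (0.06), Becn1 (0.06) and Map1lc3b (-0.02).

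Of 31 nuclear oxidative phosphorylation genes, Cox5a alone passed, at 181, 186 and 194 FPKM in hypoxia and 176, 178 and 183 FPKM in normoxia (log2 change 0.06, limma adjusted p = 0.0418), and its call was lost in 12 of 21 alternatives. Under quantile normalization 10 of the 31 fell and none rose. Of 32 cytosolic ribosomal protein genes, Rpl4 and Rpl37 rose by 0.08 each and 7 rose without DKO normoxia library 3. Under quantile normalization neither passed (limma adjusted p = 0.322 for Rpl4 and 0.242 for Rpl37). Of 11 tested mitochondrially encoded genes, mt-Atp8, mt-Nd4l and mt-Nd5 passed, the last with a call lost in 8 alternatives. mt-Atp8 was at 424, 584 and 789.8 FPKM in hypoxia and 192, 228 and 443 FPKM in normoxia with overlapping groups (log2 change 1.15 ± 0.23 SE, limma adjusted p = 0.00173). It overlaps mt-Atp6 and mt-Nd4l overlaps mt-Nd4 on the mitochondrial genome, so how reads were shared between the pairs is uncertain, and the abundant mt-Co1 did not pass (0.04).

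Vessel growth genes rose around Vegfa. Of 20 tested members of the VEGF, angiopoietin and tip cell list, 11 rose and 1 fell. The Notch ligand of tip cells, Dll4, was at 5.36, 6.08 and 7.11 FPKM in hypoxia and 3.19, 3.68 and 3.97 FPKM in normoxia (log2 change 0.64, limma adjusted p = 6.13e-06), without overlap. Pgf, which binds the VEGF receptor FLT1, rose by 0.27, the tip cell gene Esm1 by 0.41, Cxcr4 by 0.33, and the receptors Flt1 by 0.36 and Flt4 by 0.29. Kdr, the receptor that carries most of the growth signal of VEGF-A, was the member that fell: it was at 62.1, 63.8 and 69.2 FPKM in hypoxia and 69.3, 75.7 and 82.7 FPKM in normoxia (log2 change -0.22, limma adjusted p = 0.000292). Its highest hypoxia library was just under its lowest normoxia library. Angpt2, at 1329 FPKM in hypoxia and 1365 FPKM in normoxia, Tek and Tie1 did not pass, with log2 changes of -0.04, 0.04 and 0.05.

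Among vascular tone mediators 5 of 12 rose and 1 fell. Ptgs2, the inducible cyclooxygenase that starts prostaglandin synthesis, was at 9.90, 16.3 and 20.5 FPKM in hypoxia and 5.59, 6.16 and 6.90 FPKM in normoxia (log2 change 1.14 ± 0.092 SE, limma adjusted p = 2.45e-06). The dilator peptide adrenomedullin (Adm) was at 378, 396 and 436 FPKM in hypoxia and 262, 296 and 313 FPKM in normoxia (log2 change 0.46), and Calcrl, the receptor subunit for it, rose by 0.54. Both had groups that did not overlap. Ednrb, an endothelin receptor of lung capillaries, was at 10.4, 19.0 and 32.1 FPKM in hypoxia and 8.51, 12.2 and 15.2 FPKM in normoxia, and rose by 0.68 with overlapping groups. Edn1, the constrictor endothelin-1, averaged 73.6 FPKM in hypoxia and 80.2 FPKM in normoxia and fell (-0.12, limma adjusted p = 0.0115). Nos3, which makes nitric oxide, rose by 0.10. Ece1, which cleaves endothelin to its active form, had the highest level of the list, 7829.6 FPKM in hypoxia and 5533 FPKM in normoxia, and its change of 0.57 did not pass (limma adjusted p = 0.0712).

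Of 12 tested collagen hydroxylases, lysyl oxidases and related matrix genes, 9 rose and none fell, with a median change of 0.37. Plod2, which hydroxylates collagen lysines, was at 48.6, 53.2 and 60.0 FPKM in hypoxia and 19.7, 21.2 and 23.1 FPKM in normoxia (log2 change 1.31, limma adjusted p = 2.44e-10). The prolyl hydroxylase subunits P4ha2 and P4ha1 rose by 0.86 and 0.82, and Ero1l, an oxidase of the endoplasmic reticulum, by 0.81. All 4 had groups that did not overlap. P4hb, the shared beta subunit, did not pass (0.03).

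Of 18 tested oxygen-dependent demethylases and related dioxygenases, which act on chromatin and RNA, 9 rose and 2 fell. Kdm3a, which removes methyl groups from lysine 9 of histone H3, was at 34.9, 37.6 and 41.3 FPKM in hypoxia and 12.0, 12.8 and 13.3 FPKM in normoxia (log2 change 1.49, limma adjusted p = 2.91e-10). Jmjd6 was at 38.3, 44.1 and 48.0 FPKM in hypoxia and 19.0, 20.1 and 20.7 FPKM in normoxia (1.10), and the RNA demethylase Alkbh5 at 35.2, 39.2 and 41.8 FPKM in hypoxia and 19.8, 20.5 and 20.6 FPKM in normoxia (0.90). All 3 separated the oxygen levels fully. Kdm5b, Kdm2a and Kdm4b rose by 0.44, 0.43 and 0.40, and Kdm4a fell (-0.36).

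In the list of bHLH repressors, clock genes and the MYC network, 11 of 21 rose and 2 fell. The repressor Bhlhe40 was at 5.90, 10.6 and 16.5 FPKM in hypoxia and 1.37, 2.03 and 2.41 FPKM in normoxia (log2 change 1.98 ± 0.11 SE, limma adjusted p = 9.64e-08). The nuclear receptor Rora, an activator of the clock, was at 6.45, 7.29 and 8.55 FPKM in hypoxia and 2.51, 2.88 and 3.35 FPKM in normoxia (1.10). Mxi1, a MYC antagonist, rose by 0.85, its relative Mxd1 by 0.47 and their shared partner Max by 0.45, while Myc itself averaged 2.81 FPKM in hypoxia and 3.53 FPKM in normoxia and did not pass. Cry1 rose by 0.37 and Nr1d2 by 0.33.

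Of 25 listed immediate early genes 15 were tested, and 9 rose and 2 fell, against 22.7% and 22.9% of all tested genes. Fos, Fosb, Egr1, Egr2, Egr3, Nr4a1, Nr4a2, Nr4a3, Zfp36 and Rgs1 were under the filter of 1 FPKM and were not tested. Ier3, a survival gene, was at 244, 354 and 404 FPKM in hypoxia and 119, 128 and 142 FPKM in normoxia (log2 change 1.39, limma adjusted p = 1.59e-08). Junb, an AP-1 subunit, rose by 0.90, Maff by 0.69 and Jun by 0.19, without overlap. Btg2 and Ier5 fell by 0.09 and by 0.10.

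Of 24 tested genes of the MAP kinase cascade, 8 rose and 2 fell, against 22.7% and 22.9% of all tested genes. The list's median change was 0.07, and 1 of the 8 is the deleted Map3k10. The risen count was 7 with no filter and 11 without DKO hypoxia library 3. Map2k1, which encodes the ERK kinase MEK1, was at 81.3, 82.2 and 83.5 FPKM in hypoxia and 51.7, 53.3 and 56.7 FPKM in normoxia (log2 change 0.61 ± 0.022 SE, limma adjusted p = 3.06e-09). Mapk8, which encodes JNK1, rose by 0.29 and Map3k7, which encodes TAK1, by 0.24, and Map3k4 fell (-0.47). The ERK gene Mapk3 and the p38 gene Mapk14 did not pass (0.06 and 0.05). In the list of MAP kinase phosphatases, Sprouty and ETS genes 6 of 16 rose and 2 fell, with a median change of 0.01. Among the phosphatases that switch these kinases off, Dusp16 rose by 0.61, Dusp1 by 0.44 and Dusp3 by 0.39. Dusp6, a phosphatase that is selective for ERK and induced by it, was at 18.9, 21.6 and 31.1 FPKM in hypoxia and 38.4, 40.5 and 42.8 FPKM in normoxia, and fell (-0.80, limma adjusted p = 1.57e-06), with no overlap. Etv4, an ETS factor that ERK signalling also induces, rose (limma adjusted p = 6.15e-06), by 0.50 in DKO and 0.12 in WT.

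Stress programmes rose in part. Of 26 tested genes of the integrated stress response and the unfolded protein response, 13 rose and 3 fell. Nupr1, a small stress-induced nuclear protein, was at 109, 156 and 172 FPKM in hypoxia and 45.4, 52.5 and 65.7 FPKM in normoxia (log2 change 1.45 ± 0.091 SE, limma adjusted p = 3.07e-07). Atf4, the central factor of the integrated stress response, rose by 0.49, Ppp1r15a, which ends that response, by 0.52, and Eif2ak3, the sensor kinase PERK, by 0.57. These 4 had no overlap between oxygen levels. Asns, Chac1 and Ddit3 did not pass (0.08, -0.02 and 0.09), nor did the chaperone Hspa5 (0.00), and Xbp1 fell (-0.14).

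Of 18 heat shock genes, 10 rose and 3 fell. Hspa1a was at 9.73, 14.6 and 18.9 FPKM in hypoxia and 5.58, 6.96 and 7.76 FPKM in normoxia (0.93), and Hspa1b at 151, 201 and 219 FPKM in hypoxia and 101, 104 and 112 FPKM in normoxia (0.86). These inducible chaperone genes are near-identical copies, so the split of reads between them is uncertain. Hspa8, the constitutive member, fell by 0.09 with overlapping groups. In the NRF2 antioxidant list 14 of 22 rose and none fell, with a median of 0.09, and 9 rose under quantile normalization. Gclc, the enzyme that limits glutathione synthesis, was at 28.8, 32.3 and 36.1 FPKM in hypoxia and 19.2, 20.1 and 20.5 FPKM in normoxia (0.66, limma adjusted p = 1.59e-08). The other risen members changed by 0.06 (Nqo1) to 0.29 (Abcc1).

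The p53 list had 8 risen and 3 fallen of 18, led by Mdm2 (0.42), which restrains p53, and Plk2 (0.41). In the list of brakes on mTOR and insulin signalling, 6 of 15 rose and 2 fell. Ddit4, which inhibits mTOR in hypoxia, was at 53.2, 57.0 and 63.5 FPKM in hypoxia and 33.2, 37.6 and 47.4 FPKM in normoxia (0.59, limma adjusted p = 2.06e-06), without overlap, and the translation repressor Eif4ebp1 rose by 0.24. Sesn1, which belongs to both lists, fell (-0.37).

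None of 34 DNA replication and S phase genes rose and 13 fell, against 22.7% and 22.9% of all tested genes. Their median change was -0.10, and no gene had groups that were apart. The fallen count was 9 with no filter or without WT or DKO hypoxia library 2, and 16 without WT hypoxia library 3. The clamp loader subunit Rfc3 was at 10.4, 11.8 and 12.4 FPKM in hypoxia and 12.1, 14.7 and 16.9 FPKM in normoxia (-0.32, limma adjusted p = 0.00305), and Pcna, the replication clamp, averaged 128 FPKM in hypoxia and 137 FPKM in normoxia (-0.09). By genotype, 1 of the 34 fell in DKO cells and 17 in WT cells, where the median changes were -0.0037 in DKO and -0.18 in WT, but the difference between the genotypes passed for none of the 34. Of 34 mitosis genes 4 rose and 3 fell. In DKO cells 12 rose and 2 fell, and in WT cells none rose and 9 fell, again with no difference past the threshold. Among all tested genes, 39.3% were called in DKO cells and 20.8% in WT cells, both directions together. Without WT hypoxia library 3, 2 mitosis genes rose and 5 fell on average. In bulk RNA, fewer cells in a phase and less RNA per cell cannot be told apart. Among G1 genes 8 of 18 rose and 4 fell: the inhibitor Cdkn1b, which encodes p27, was at 59.6, 67.8 and 77.2 FPKM in hypoxia and 44.7, 46.6 and 48.6 FPKM in normoxia (0.54), Ccng2 rose by 0.44, and Cdkn1c fell (-0.44).

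Endothelial signalling lists held changes both ways, to be read beside the 22.7% risen and 22.9% fallen of all tested genes. In the Notch pathway 4 of 13 rose and 5 fell. Besides Dll4, the target genes Hes1 (0.44) and Hey1 (0.68) and the DNA-binding factor Rbpj (0.32) rose. Lfng, which adds sugars to Notch receptors, was at 1.23, 1.69 and 3.38 FPKM in hypoxia and 3.94, 4.43 and 5.10 FPKM in normoxia and fell (-0.91, limma adjusted p = 5.81e-06), and the receptors Notch1 (-0.28) and Notch2 (-0.30) and the target Nrarp (-0.38) fell. In the BMP list 4 of 16 rose and 3 fell, near those shares, with a median change of 0.0033. The receptors Acvrl1 (0.20) and Bmpr2 (0.21) rose, and Bmp4 (-0.30) and the receptor Acvr2a (-0.28) fell. The targets Id1 (-0.18), Id2 (0.02) and Id3 (0.02) did not pass. Without WT hypoxia library 3 the BMP list had 5 fallen genes, and under quantile normalization 3 rose and 6 fell.

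Klf4, a factor that keeps endothelium quiescent, was at 23.9, 28.5 and 32.7 FPKM in hypoxia and 16.5, 19.4 and 20.7 FPKM in normoxia (0.55, limma adjusted p = 0.000114), and Klf2 rose by 0.31, while their target thrombomodulin (Thbd) fell (-0.22). In that list 5 of 14 rose and 2 fell, 4 rose and 4 fell under quantile normalization, and 3 rose in the additive model. Of 19 adhesion, NF-kB and chemokine genes 7 rose and 4 fell. Tnfaip3, an inhibitor of NF-kB, was at 2.42, 3.09 and 3.91 FPKM in hypoxia and 1.07, 1.15 and 1.91 FPKM in normoxia (0.86), and the NF-kB inhibitor gene Nfkbie fell (-0.49). The adhesion genes Icam1 and Vcam1 did not pass (0.07 and -0.10), and Ccl2, at 793 FPKM in hypoxia and 875 FPKM in normoxia, fell (-0.14). In the YAP and TEAD list 10 of 15 rose and 2 fell, among the risen Cyr61 (0.57), Ctgf (0.27), Tead4 (0.58) and Yap1 (0.28).

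Among lipid droplet and fatty acid genes 7 of 18 rose and 3 fell. Hilpda, a HIF target that blocks fat breakdown, was at 25.4, 40.3 and 53.5 FPKM in hypoxia and 19.0, 21.3 and 22.2 FPKM in normoxia (0.87, limma adjusted p = 2.83e-06), and the droplet coat gene Plin3 fell (-0.42), neither with overlap. Of 20 cholesterol synthesis genes 2 rose and 4 fell, against 22.7% and 22.9% of all tested genes. None had groups apart, against 9.33% of all tested genes upward and 9.73% downward. The fallen count was 3 with no filter and 6 with array weights.

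RNA splicing factors changed in opposite directions. Of 26, 14 rose and 6 fell, and the groups did not overlap for 8 and 5 of them, against 9.33% and 9.73% of all tested genes. Srsf5, a serine and arginine rich splicing factor, was at 147, 162 and 179 FPKM in hypoxia and 97.4, 101 and 107 FPKM in normoxia (log2 change 0.66, limma adjusted p = 1.12e-08). Tra2a, another factor of that kind, was at 45.8, 47.3 and 57.4 FPKM in hypoxia and 72.2, 78.3 and 82.1 FPKM in normoxia (-0.67, limma adjusted p = 4.71e-07). Both separated the oxygen levels, the first upward and the second downward. Srsf2 (0.34), Rbm25 (0.44) and the cold-inducible genes Cirbp (0.40) and Rbm3 (0.24) rose with Srsf5, and Srsf7 (-0.44), Tra2b (-0.35) and Srsf10 (-0.27) fell with Tra2a.

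Several other genes had a log2 rise of over 1 and belong to no list; most were picked after their values were seen. Gper1, a membrane estrogen receptor, was at 1.42, 3.15 and 3.74 FPKM in hypoxia and 0.214, 0.367 and 0.419 FPKM in normoxia (1.48), and Stc1, a secreted glycoprotein hormone, at 67.6, 87.1 and 130.4 FPKM in hypoxia and 25.0, 34.3 and 43.4 FPKM in normoxia (1.46); both were named by the rule. Plat, the tissue plasminogen activator, was at 111, 119 and 135 FPKM in hypoxia and 50.6, 55.3 and 69.6 FPKM in normoxia (1.07), and the matrix protease Adamts1 at 44.8, 65.7 and 71.2 FPKM in hypoxia and 24.2, 26.8 and 28.5 FPKM in normoxia (1.16). None of the 4 overlapped. Apold1 rose by 1.18, the clock repressor Ciart by 1.23, the potassium channel subunit Kcne3 by 1.11, Prss35 by 1.19, Rapgef5 by 1.10, the phosphodiesterase Pde4d by 1.09 and the repressor Hic1 by 1.04, all without overlap. Gper1 and Prss35 averaged 0.339 and 0.62 FPKM in normoxia and passed the filter of 1 FPKM only through their hypoxia libraries. Of all 37 genes that rose by more than 1, mt-Atp8 was the single one with overlapping groups.

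Among genes without overlap, the largest falls were smaller than the largest rises. Spsb2, an adaptor of a ubiquitin ligase, was at 4.75, 5.68 and 7.52 FPKM in hypoxia and 15.3, 16.1 and 18.7 FPKM in normoxia (log2 change -1.33 ± 0.062 SE, limma adjusted p = 2.38e-08). Kit, the receptor for stem cell factor and a marker of lung capillary cells, was at 2.77, 3.73 and 3.90 FPKM in hypoxia and 7.14, 8.72 and 10.4 FPKM in normoxia (log2 change -1.09 ± 0.057 SE, limma adjusted p = 8.35e-08). Spsb2 lies at chromosome 6, 124808661 to 124810619, + strand, ENSMUSG00000038451 and Kit at chromosome 5, 75574916 to 75656722, + strand, ENSMUSG00000005672. Klhl36, an adaptor of another class of ubiquitin ligases, was at 3.18, 4.22 and 5.61 FPKM in hypoxia and 8.24, 9.98 and 10.3 FPKM in normoxia (log2 change -1.02, limma adjusted p = 2.44e-07). Lack of overlap between the groups was part of the rule that named these falls, as it was for the named rises. Ptx3, a secreted pattern recognition protein, was at 1.16, 2.04 and 2.59 FPKM in hypoxia and 3.20, 5.21 and 7.48 FPKM in normoxia (-1.01), and the membrane lectin gene Chodl at 2.10, 2.76 and 4.81 FPKM in hypoxia and 5.16, 6.86 and 8.94 FPKM in normoxia (-0.95). The 3 remaining falls over 1, in Gm10509, Gm29394 and an identifier with the symbol Sgsm3, came from groups that overlapped, with log2 changes of -1.64, -1.10 and -1.02, at means of 0.542, 0.444 and 0.339 FPKM in hypoxia and 4.15, 2.61 and 1.75 FPKM in normoxia. These 3 passed the filter of 1 FPKM only through their normoxia libraries.

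Other named falls were Wfdc12 (-0.93), Wdr5b (-0.85), Lysmd4 (-0.85), Wscd1 (-0.83) and the zinc finger genes Zfp760 (-0.94), Zfp763 (-0.84), Zfp3 (-0.81) and Zfp442 (-0.79), none with overlap. Wscd1 was at 3.72, 4.23 and 4.82 FPKM in hypoxia and 7.26, 8.27 and 9.85 FPKM in normoxia, and Zfp442 at 1.88, 2.20 and 3.18 FPKM in hypoxia and 4.51, 4.82 and 5.28 FPKM in normoxia. Among abundant genes (mean of 100 FPKM or more), the falls with the smallest p were in Kank3 (-0.49), which organises the actin cortex, Txnip (-0.47), which restrains glucose uptake, Fam43a (-0.31), the caveolar gene Sdpr (-0.27) and Tsc22d1 (-0.25). Txnip was at 139, 154 and 189.7 FPKM in hypoxia and 214, 223 and 227 FPKM in normoxia, with no overlap, while the groups of Sdpr overlapped.

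Of 292 tested genes with a symbol that starts with Zfp and a number, a family chosen after the values were seen, 179 fell (61.3%), 15 rose (5.14%) and 98 did not pass, against 22.9% and 22.7% of all tested genes. Their median change was -0.23, with -0.28 in DKO cells and -0.18 in WT cells, and all 6 hypoxia libraries lay below all 6 normoxia libraries for 91 of them, against 9.73% of all tested genes. Most of these genes encode DNA-binding proteins with zinc fingers. The choice of the family followed the pattern, so no test is attached to these counts.

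**Figure D4:**
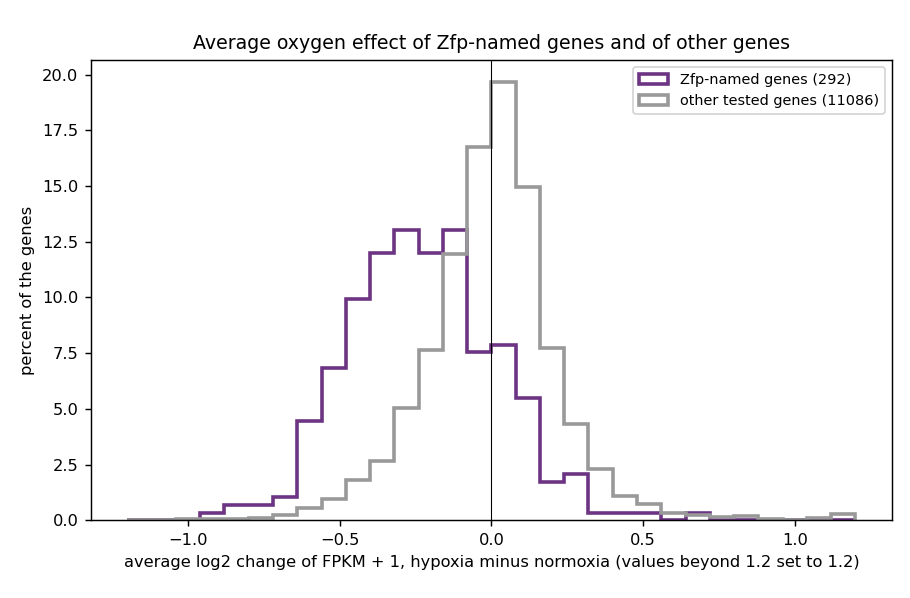
Distribution of the average log2 change of FPKM + 1 (hypoxia minus normoxia) for 292 Zfp-named genes (purple) and the other tested genes (grey), as percent of the genes in each set; values beyond the axis were set to its ends. The purple curve is shifted to the left, with a median of -0.23, against 0.01 for all tested genes.

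Level, length and type of gene are given as a description, with no test; the filter and the variance trend use the level, so it is not independent of the calls. The median level was 23.4 FPKM for risen, 8.83 FPKM for fallen and 12.6 FPKM for all tested genes, and genes that fell by more than 0.5 had a median of 5.02 FPKM. Median gene length was 35062 bases for risen, 18990 bases for fallen and 24149 bases for all tested genes (GENCODE M21, which held 96.0%, 96.5% and 94.7% of them). The 37 genes that rose by more than 1 had a median length of 14153 bases and 6 exons, against 9 exons for all tested genes. By the type of gene given in the deposited file, 44 of 202 tested lincRNA genes rose and 25 fell (21.8% and 12.4%), against 2490 and 2524 of 10811 protein-coding genes (23.0% and 23.3%).

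The cultures were checked for other cell types at both oxygen levels. The defining genes of epithelium, Epcam, Cdh1, Sftpc and Nkx2-1, were at or under 0.103 FPKM in every library, and Scgb1a1 was listed at 0 in all 12. Smooth muscle Myh11 was at or under 0.0766 FPKM and the pericyte gene Pdgfrb at or under 0.238 FPKM, fibroblast Col1a1 at or under 0.298 FPKM, and the T cell gene Cd3e at or under 0.0732 FPKM. The leukocyte gene Ptprc was higher, at 0.108 to 1.28 FPKM in hypoxia and 0.0820 to 0.761 FPKM in normoxia. Few members were tested. In the smooth muscle and pericyte list 3 of 5 tested genes of 12 rose, with summed levels of 37.6 to 52.9 FPKM in hypoxia and 32.0 to 41.6 FPKM in normoxia. In the macrophage and leukocyte list 1 of 6 tested genes of 16 rose, with summed levels of 53.3 to 97.0 FPKM in hypoxia and 41.8 to 102.2 FPKM in normoxia. In the epithelial list 2 of 4 tested of 14 rose (sums of 32.6 to 36.7 FPKM in hypoxia and 29.8 to 36.2 FPKM in normoxia), and in the fibroblast list 2 of 4 tested of 12 fell (57.5 to 64.0 FPKM in hypoxia and 53.1 to 68.6 FPKM in normoxia). Of 6 mesothelial markers none was tested, and of 8 erythroid and platelet markers only Pf4 was, which rose by 0.46 with a call lost in 3 alternatives. The call of the fibroblast marker Fbln1 was lost in 9 of 20 alternatives, that of the smooth muscle marker Acta2 in 7, and that of Mrc1, the risen macrophage marker, without WT or DKO hypoxia library 1. The part of these cell types in the results was not tested.

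Within the endothelial lists, 6 of 17 pan-endothelial markers rose and 2 fell (22.7% and 22.9% of all tested genes), with a median change of 0.04 and summed levels of 5698 to 5873 FPKM in hypoxia and 5509 to 5701 FPKM in normoxia, and 3 rose and 5 fell under quantile normalization. Erg rose by 0.20 and Ecscr by 0.18. Of 9 lymphatic markers Prox1, Flt4 and Nts rose, and none fell; Prox1, the factor that sets lymphatic identity, was at 25.1, 29.8 and 39.4 FPKM in hypoxia and 18.5, 22.3 and 24.8 FPKM in normoxia (0.48, limma adjusted p = 7.15e-05). Lymphatic genes that rose numbered 6 without WT hypoxia library 3 and 5 without DKO hypoxia library 3. The summed lymphatic level was 900.3 to 1196 FPKM in hypoxia and 815 to 1059 FPKM in normoxia. Of 7 lung capillary markers 3 rose and 2 fell: Sgk1 rose by 0.59 and Ednrb by 0.68, and Kit and Kdr fell. Car4, a marker of one capillary cell type, was listed at 0 in 11 of 12 libraries. Ager, an epithelial marker by list, was at 2.34, 2.60 and 2.99 FPKM in hypoxia and 0.973, 1.06 and 1.21 FPKM in normoxia (0.79, limma adjusted p = 4.55e-07), without overlap.

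A gene called on the mean of the genotypes tends to have 1 sign in both, so the agreement in sign is a description only. Of the 2585 risen genes, 2550 had a positive change in each genotype, and of the 2608 fallen genes 2563 had a negative one. On its own, DKO passed for 4468 genes (39.3%) and WT for 2370 (20.8%). Of the risen genes 965 passed in both genotypes, 1075 in DKO alone, 184 in WT alone and 361 in neither. Of the fallen genes 944 passed in both, 1116 in DKO alone, 182 in WT alone and 366 in neither. The count past in both genotypes in 1 direction was 1909 in all and 1194 without WT hypoxia library 1. The change was larger in DKO for 1950 of the risen and 2011 of the fallen genes, with median changes of 0.25 in DKO and 0.16 in WT for risen genes, and -0.29 in DKO and -0.20 in WT for fallen genes. All 37 genes that rose by more than 1 passed in both genotypes, 18 of them had the larger change in WT, and for none did the difference between genotypes pass the threshold. Slc16a3 changed by 2.87 in DKO and 3.54 in WT, Ak4 by 3.30 in DKO and 3.89 in WT, and Bnip3 by 3.00 in DKO and 3.05 in WT.

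**Figure D5:**
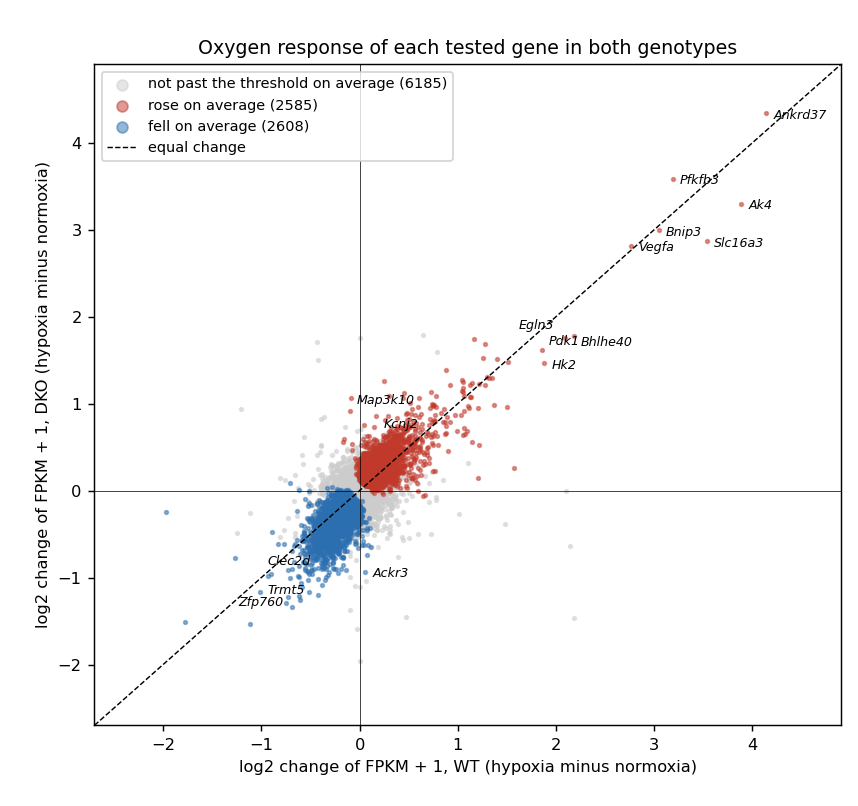
Log2 change of FPKM + 1 (hypoxia minus normoxia) of each tested gene in WT (horizontal) and DKO cells (vertical), coloured by the call on the average effect, with a dashed line of equal change. Bnip3 and Vegfa lie on the line and Ak4 and Slc16a3 below it, while the bulk of red and blue points lies steeper than it, with medians of 0.25 in DKO and 0.16 in WT for risen genes.

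The difference itself, the DKO change minus the WT change, was also tested. An unadjusted limma p under 0.05 was found for 1820 genes, 16% of those tested. After adjustment 22 genes passed (0.193% called), of which 20 also passed on average. The count was 39 without WT hypoxia library 1, 17 without DKO hypoxia library 2, 23 without WT hypoxia library 3 and 1 to 4 without any 1 of the other 9 libraries. Map3k10 is 1 of the 20, and its average (0.41) joins a change of 0.92 in DKO, from the residual signal given above, and -0.10 in WT. Ackr3, a scavenging receptor of CXCL12, changed by -0.94 in DKO and 0.06 in WT (difference -0.99, limma adjusted p = 0.0354), so its average of -0.44 joins a fall in DKO with a change in WT that did not pass. The potassium channel Kcnj2 changed by 0.86 in DKO and 0.17 in WT (difference 0.69, limma adjusted p = 0.0347). The tRNA methyltransferase Trmt5 changed by -1.08 in DKO and -0.39 in WT, Clec2d by -0.94 in DKO and -0.31 in WT, and Zfp760 by -1.26 in DKO and -0.61 in WT, the same direction with the larger size in DKO. Only 11 genes were called in opposite directions in the genotypes.

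The average also found genes that neither genotype gave alone, 361 risen and 366 fallen. The largest changes among them were in genes at low levels with overlapping groups. Nmd3, an export factor of the large ribosomal subunit, was at 4.96, 5.91 and 11.1 FPKM in hypoxia and 3.22, 4.13 and 5.81 FPKM in normoxia (0.52, limma adjusted p = 0.0250), and Crybb3 at 1.38, 2.76 and 3.05 FPKM in hypoxia and 1.10, 1.60 and 2.25 FPKM in normoxia (0.46, limma adjusted p = 0.0116). Of the 10 named, only Crybb3 and Cmc2 (-0.38) kept their call in all alternatives. The others were Pf4 (0.46), Ptprg (0.42), Fgf13 (0.42), Zfp799 (-0.43), Umad1 (-0.42), Ppp1r18os (-0.39), Zfp688 (-0.37) and Nmd3.

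By transcript, 5348 of 18090 tested transcripts passed (29.6% called), 2842 higher and 2506 lower in hypoxia. Of 4079 genes with at least 2 tested transcripts, 94 had both a risen and a fallen one, and 56 of these did not pass as genes. Aen, an exonuclease gene that p53 induces, averaged 56.1 ± 3.42 FPKM in hypoxia and 60.7 ± 3.54 FPKM in normoxia as a gene (SD, n = 6 each) and did not pass (-0.11, limma adjusted p = 0.0603); it passed as a fall under quantile normalization and without DKO hypoxia library 3. Its transcript ENSMUST00000107425 was at 10.1, 12.1 and 14.0 FPKM in hypoxia and 8.56, 9.07 and 9.57 FPKM in normoxia (log2 change 0.37, limma adjusted p = 0.000328), and ENSMUST00000107423 at 1.58, 2.62 and 3.71 FPKM in hypoxia and 4.70, 5.56 and 7.48 FPKM in normoxia (log2 change -0.96, limma adjusted p = 0.000144). Neither transcript's groups overlapped. Serpinb6a, a protease inhibitor gene with a change of -0.0028 as a gene that did not pass, except as a fall under quantile normalization, held ENSMUST00000170991 at 13.3, 17.97 and 20.9 FPKM in hypoxia and 22.3, 25.1 and 28.5 FPKM in normoxia (log2 change -0.52, limma adjusted p = 0.000362), and ENSMUST00000076532, whose groups overlapped, rose by 0.99. Arhgef40, Hdac7 and Rpain also had a risen and a fallen transcript. Shares between transcripts are estimates of the quantifier, and several were listed near 0 in single libraries.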

How the data were processed

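RNA of 12 libraries was measured, 3 in each of 4 groups set by genotype and oxygen. The authors deposited FPKM values per transcript, a unit already divided by transcript length and library size. TopHat2 is named in the submitters' processing notes; which quantifier, genome build and annotation they used is not given in the sources used here. FPKM hold no counts, so depth was estimated from steps in the low values of 10573 genes with a single transcript, taking 275 bases off each length, where 87.8 to 91.1% of low values came out whole within 0.1.

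Transcript values (52655) were summed per gene identifier, kept where the 12 libraries averaged 1 FPKM or more, and analysed as log2(FPKM + 1) in limma 3.58.1 (R 4.3.3), with 1 mean per group, a variance trend and Benjamini-Hochberg adjustment over all 11378 genes at 0.05. The average effect is the mean of hypoxia minus normoxia in DKO and in WT cells. Summaries used Python 3.11.15, pandas 2.3.3, numpy 2.4.6 and matplotlib 3.10.9. The fit was tested on simulated data. The members and lists were chosen with earlier results of these data known. A gene's groups do not overlap where all 6 libraries of 1 oxygen level lie on 1 side of the other 6.

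Named genes were the 15 largest rises and falls without overlap, up to 3 members with the smallest p per list, 5 each way with the smallest p among genes averaging 100 FPKM or more, 5 each way past on average but in neither genotype, the 6 largest genotype differences past both tests, 5 genes not past with the widest gap between a risen and a fallen transcript, and both deleted genes; predicted models were passed over. Other list members were taken to show a list's range, after their values were seen. Gene positions are from GENCODE M21 and promoters from RefSeq GRCm38.p6. Alternatives were another pseudocount (0.1), no filter, a filter of 5 FPKM, quantile and median scaling, array weights, an additive model, no variance trend, a replicate block and leaving out each library.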

Additional observations from a re-analysis of the deposited data

Results flagged for a closer look

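Of 306 groups of 6 libraries checked over the named genes, 12 held 1 library far from the others, and chance alone marks about 1 in 20 groups. In hypoxia these were Zfp3, Zfp688 and Crybb3 in WT library 3, at 2.00, 6.30 and 1.38 FPKM against 1.00 to 1.18, 4.42 to 4.72 and 2.52 to 3.05 FPKM in the other 5 libraries. Rpain was at 57.2 FPKM in WT hypoxia library 2, against 35.3 to 42.0 FPKM in the others. In DKO hypoxia library 3, Ccng2 was at 72.7 FPKM, against 77.7 to 79.6 FPKM, and Aen at 62.7 FPKM, against 53.3 to 56.5 FPKM. In normoxia, DKO library 3 had the highest Tpi1 and Ak4, at 221.5 and 5.54 FPKM, against 196.0 to 201.4 and 2.66 to 3.33 FPKM in the others. Tnfaip3 was at 1.91 FPKM in DKO normoxia library 2, against 1.07 to 1.34 FPKM. Alkbh5 was at 19.8 FPKM in WT normoxia library 3, against 20.4 to 20.6 FPKM, Bmp4 at 63.7 FPKM in WT normoxia library 1, against 74.5 to 79.1 FPKM, and Klhl36 at 8.24 FPKM in WT normoxia library 2, against 9.51 to 10.3 FPKM.

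The oxygen effect differed between genotypes, by limma's test of the DKO change minus the WT change, for 7 named genes among the 22 called. The naming rule took in the 6 largest differences past both tests, so all of the 7 but Etv4 were bound to appear here. The count of 22 was 1 with the replicate block, 6 with no variance trend, and 1 to 4 without any 1 of 9 libraries. The difference was 1.02 for Map3k10 (adjusted p = 0.00375), 0.69 for Kcnj2 (adjusted p = 0.0347), 0.38 for Etv4 (adjusted p = 0.0347), -0.63 for Clec2d (adjusted p = 0.0354), -0.66 for Zfp760 (adjusted p = 0.0354), -0.69 for Trmt5 (adjusted p = 0.0347) and -0.99 for Ackr3 (adjusted p = 0.0354). Etv4, an ETS factor that ERK signalling induces, changed by 0.50 in DKO and 0.12 in WT.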

How the results depend on the processing

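The average effect called 5193 genes, and 4082 (mean of 5 FPKM or more) to 5614 (array weights) under the other settings, or 4618 to 5146 with 1 library left out; the share of higher calls was 49.8%, and 46.5% (quantile) to 55.0% (filter of 5 FPKM) elsewhere, with the median of all genes under 0.02 in size. Genes lower by more than 1 numbered 7, against 24 with a pseudocount of 0.1, 3 with the filter of 5 FPKM, 4 under quantile normalization and 4 to 8 with 1 library left out; genes higher by more than 1 numbered 37, and 37 to 39 with 1 library left out. Opposite calls numbered 11, against 7 with no filter, 6 under quantile normalization, 21 with array weights and 2 to 16 with 1 library left out. Genes called in both genotypes in 1 direction numbered 1909, and 1194 to 1882 with 1 library left out. Genotype differences numbered 22, against 12 under quantile normalization, 6 with no variance trend, 153 with array weights and 1 to 39 with 1 library left out; the cause was not tested. Deviations of same-numbered libraries correlated at r of -0.0842 to 0.0497, and those of differently numbered libraries at -0.12 to 0.087. Whether the numbers pair libraries cannot be told from these values. A fit with the replicate block called 5152 genes on average and 1 genotype difference. Of the 147 named genes past the threshold, 131 kept it in every alternative. The genes that changed sign had not passed on average: Rpain was at -0.026 under quantile normalization and -0.081 to 0.089 with 1 library left out, the log2 change of Map3k11 was 0.000665 with equal medians, 0.0024 with array weights and -0.028 to 0.0057 with 1 library left out, the log2 change of Serpinb6a was 0.00938 with equal medians, -0.072 and past the threshold under quantile normalization, and -0.023 to 0.011 with 1 library left out, and Hdac7 at -0.095 to 0.047 with 1 library left out. The depth behind each value is an estimate, and counts of 1 to 3 genes in a list moved by up to 5 with single libraries.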

Other observations

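Gene families read by symbol after the values were seen are given beside the 22.7% risen and 22.9% fallen of all tested genes. Of 173 solute carrier genes 52 rose and 28 fell, of 99 genes named Rnf or Trim, many of them ubiquitin ligases, 16 rose and 29 fell, and of 50 genes of RNA helicases named Ddx or Dhx 17 rose and 15 fell. Of 52 genes of tRNA modification and aminoacylation 8 rose and 12 fell. Of 144 antisense genes by the deposited type, 18 rose and 17 fell, and the sources used here do not say whether strand was used in counting.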
